A study of Mus musculus with 20 samples.

Results

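Replication origins are licensed by a small set of proteins, and the 10 genes described here encode the helicase they load, its loaders and their inhibitor. They are the 6 subunits of the MCM2-7 helicase (Mcm2, Mcm3, Mcm4, Mcm5, Mcm6 and Mcm7), the helicase-associated factor Mcm10, the loading factors Cdc6 and Cdt1, and Gmnn, which encodes geminin, the inhibitor of CDT1. They were taken by gene symbol and are 10 of the 23309 symbols in the deposited tables, each with 1 locus. All 10 entered the tests, which took 12311 genes with a mean of at least 1 FPKM in at least 1 group. FPKM counts sequenced fragments for each kilobase of transcript, scaled to the number of mapped fragments, so levels of different genes are compared here per length. By that scaling, rose, fell, higher and lower refer here to a share of each library's fragments. The values do not give the amount of an mRNA per oocyte or embryo.

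In dividing cells the origin recognition complex, CDC6 and CDT1 load MCM2-7 rings onto DNA in late mitosis and G1, which licenses the origin. CDC45 and the GINS complex then turn the loaded ring into the active helicase at the start of S phase, a step in which MCM10 also acts, and geminin binds CDT1 and blocks any further loading until mitosis ends. The oocyte replicates no DNA between its meiotic divisions. The zygote then enters S phase with proteins and mRNAs that the oocyte stored, before the main activation of the embryonic genome at the 2-cell stage in the mouse.

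The files place Mcm2 at chr6:88833467-88848774, Mcm3 at chr1:20793094-20810294, Mcm4 at chr16:15623989-15637493, Mcm5 at chr8:77633426-77652338, Mcm6 at chr1:130228167-130256233 and Mcm7 at chr5:138605816-138613090 of the mouse build mm9. Mcm10 lies at chr2:4911769-4933837, Cdc6 at chr11:98769202-98785256, Cdt1 at chr8:125091914-125097030 and Gmnn at chr13:24843713-24853806. The subunits of the ring are thus spread over 5 chromosomes.

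Oocytes and embryos of the ICR strain were collected from females 21 to 23 days old after injection of PMSG and hCG, the gonadotropins that drive follicle growth and ovulation, and the females were mated where embryos were needed. Each library was made from 60 pooled oocytes or embryos. The Btg4 experiment has 16 libraries: 2 labelled Btg4-/- and 2 wild type at each of 4 stages, namely the germinal vesicle (GV) oocyte, held in meiotic prophase, the ovulated oocyte held in metaphase II (MII), the zygote, and the embryo at 2 cells. The Erk experiment has 4 libraries, 1 labelled Erk-/- and 1 wild type at GV and at MII. BTG4 recruits the CCR4-NOT deadenylase to maternal mRNAs during maturation, and ERK kinases act in the meiotic MAP kinase pathway. The labels give neither the Btg4 allele nor which Erk gene was deleted or in which cells, and the genotype of the sires is not stated. The embryos labelled Btg4-/- came from mothers of that genotype per the labels' treatment note, which names no Erk-/- females. Nothing in the labels says whether the libraries of a group have different donors. The p-values therefore rest on the spread between these libraries, part of which may be technical.

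Btg4 itself was at 1979.8 and 1881 FPKM in the GV libraries labelled Btg4-/-, against 1449.6 and 1673 FPKM in wild type, and at 3514 and 3632 FPKM in 2-cell embryos labelled Btg4-/-, against 1147 and 964 FPKM in wild type. It was lower at MII (172 and 191 FPKM, against 415 and 406 FPKM in wild type) and in the zygote (139 and 164 FPKM in libraries labelled Btg4-/- and 610.3 and 559 FPKM in wild type). A value summed over a whole gene cannot show whether one exon is missing, so groups are called here by their labels. Of 12 oocyte markers, 10 to 12 were at 1 FPKM or more in every library. Granulosa and cumulus cell markers summed to 73.1 to 88.7 FPKM in the 4 GV libraries of the Btg4 experiment and to 0.939 to 22.7 FPKM in the other 16, with 6 to 8 of the 13 markers at 1 FPKM or more in those 4 and 0 to 5 in the others. The granulosa marker Foxl2 was at 0.816 to 2.44 FPKM in those 4 libraries and at 0 in the others. Of 8 sperm markers, 0 to 2 were at 1 FPKM or more in each library, with sums of 0 to 13.6 FPKM. Among them Prm1 was at 0 throughout. Prm2 was at 10.5 and 13.2 FPKM in the GV libraries labelled Btg4-/-. At GV in the Erk experiment it was at 13.6 FPKM labelled Erk-/-, its highest value, and at 12.0 FPKM in wild type. In all other libraries it was at 0 to 6.99 FPKM. Markers of proliferating somatic cells, the kind of cell in which licensing genes are high, summed to 24.7 to 31.1 FPKM in the GV libraries, 3.72 to 9.81 FPKM at MII, 11.3 to 25.7 FPKM in the zygote and 23.1 to 38.7 FPKM at the 2-cell stage of the Btg4 experiment, and to 46.0 to 102.6 FPKM in the Erk experiment. Of these 5 markers, 1 to 4 were at 1 FPKM or more in each library. The wild-type Erk MII library, with the highest sum, had 2 of them at 0. Mki67 was at 1.65 FPKM and Top2a at 0.175 FPKM there. At GV in the Btg4 experiment Mki67 was at 0.059 to 0.379 FPKM and Top2a at 0.263 to 1.99 FPKM. The highest values were 17.03 FPKM for Mki67 (wild-type GV, Erk experiment) and 17.02 FPKM for Top2a (wild-type zygote library 2). A sum can thus rest on few markers. In libraries of pooled oocytes, fewer cells of a type and less RNA per cell cannot be told apart.

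The 3′ ends of these mRNAs are shown first, because stored maternal mRNAs are controlled there: the cytoplasmic polyadenylation element (CPE), bound by CPEB1, lies close upstream of the polyadenylation signal in many mRNAs whose tails lengthen during maturation. The letters TTTTAT and TTTTAAT were searched on the transcript strand in the last 100 bases of the principal transcript of each gene (GENCODE M21, GRCm38). At least 1 of them was present in 6 of the 10 genes, against 17.09% of 19287 genes with a 3′ end. A polyadenylation signal (AATAAA or ATTAAA) was in the last 40 bases of 8 of the 10 genes, against 71.08%. The 30 bases around the CPE are printed 5′ to 3′ with 1 CPE in capitals.
Mcm2: gtagtttattTTTTAATagatttgaataaa
Mcm4: tttcattaatTTTTATagatccttagatta
Mcm7: catgctgcacttTTTTATtctgccaataaa
Mcm10: aatattcattaatggaactaaccTTTTAAT
Cdt1: tgcatgtgactgctagttttggcTTTTAAT
Gmnn: gtatttttaatccgTTTTATgtaaatagca
In Mcm2 and Mcm7 the polyadenylation signal aataaa closes the printed window, 7 and 6 bases after the CPE. In Mcm4 and Gmnn the signal lies 59 and 49 bases further on, and Gmnn holds a second CPE, ttttaat, in the same window before the one in capitals. No match was found in these windows of Mcm3, Mcm5, Mcm6 and Cdc6. A match is a description of the letters and not of a bound site.

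The question of the first comparison was how the stored licensing mRNAs stood along the wild-type course from GV oocyte to 2-cell embryo. The 6 ring subunits did not follow 1 course (the plot of FPKM by stage). Mcm5 was the most abundant subunit mRNA at GV, at 65.9 ± 2.03 FPKM (SD, n = 2 here and below), and was at 19.1 ± 2.75 FPKM at MII, 47.4 ± 6.78 FPKM in the zygote and 15.8 ± 0.0610 FPKM at 2-cell. Mcm4 was low at both ends and high between, with 13.2 ± 0.527 FPKM at GV, 45.0 ± 4.61 FPKM at MII, 60.1 ± 0.374 FPKM in the zygote and 5.80 ± 0.330 FPKM at 2-cell. Mcm7 rose and fell like Mcm4, with 19.4 ± 0.933, 45.6 ± 0.0947, 61.9 ± 8.88 and 11.5 ± 1.61 FPKM at the 4 stages. Mcm2 was highest at GV (41.5 ± 3.70 FPKM) and stood at 18.7 ± 5.32, 21.8 ± 0.878 and 23.8 ± 3.53 FPKM after that. Mcm3, the lowest subunit at GV, was at 8.12 ± 1.96, 19.1 ± 3.14, 20.1 ± 0.688 and 10.98 ± 2.61 FPKM. Mcm6 varied least, between 21.3 ± 1.19 FPKM at 2-cell and 36.2 ± 2.81 FPKM in the zygote.

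**Figure D1:**
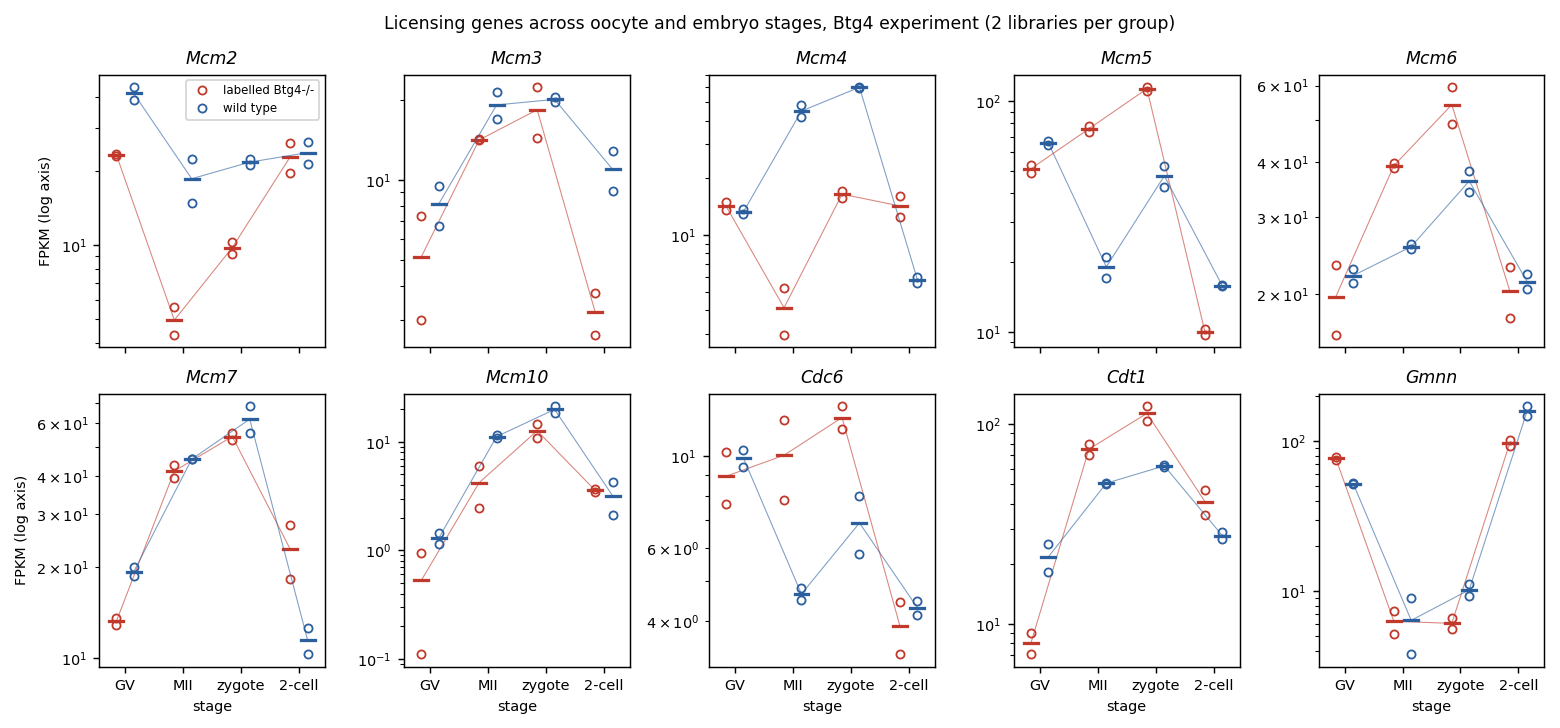
FPKM of each of the 10 genes on a log axis in the 16 libraries of the Btg4 experiment, by stage. Each open circle is 1 library, bars are means of 2 libraries, and libraries labelled Btg4-/- (red) stand left of wild type (blue). Mcm4 and Mcm5 show the widest separation of the genotypes at MII, and Gmnn is low at MII and in the zygote in both genotypes.

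The regulators moved in opposite ways along the same course. Cdt1, whose product brings the MCM ring to the origin, was at 21.7 ± 4.88 FPKM at GV, 50.7 ± 0.457 FPKM at MII, 61.9 ± 1.24 FPKM in the zygote and 27.7 ± 1.48 FPKM at 2-cell. Its inhibitor Gmnn was at 52.0 ± 0.623 FPKM at GV, 6.38 ± 3.65 FPKM at MII, 10.2 ± 1.34 FPKM in the zygote and 159 ± 15.7 FPKM at 2-cell. Cdc6, an ATPase that joins the origin recognition complex to receive the ring, stayed lower, at 9.88 ± 0.634, 4.65 ± 0.208, 6.90 ± 1.55 and 4.31 ± 0.231 FPKM. Mcm10 was close to the level filter at GV, at 1.29 ± 0.206 FPKM, and was at 11.2 ± 0.591 FPKM at MII, 19.9 ± 1.83 FPKM in the zygote and 3.19 ± 1.503 FPKM at 2-cell. In the zygote, the order from the highest mean was Cdt1, Mcm7 and Mcm4, where the libraries of Mcm7 spanned those of the other pair, then Mcm5, then Mcm6. Mcm2, Mcm3 and Mcm10 followed with means that differed by less than 2 FPKM, and Gmnn and Cdc6 were lowest.

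From GV to MII in wild type, 5 of the 10 genes rose and 4 fell by limma, a linear model on log2(FPKM + 1) with moderated variances and Benjamini-Hochberg adjustment over all 12311 genes at a threshold of 0.05. Over all genes 25.2% rose and 28.5% fell, 53.7% in all, and the median change was -0.02. Mcm10 rose (log2 change 2.41, SE 0.36, adjusted p = 9.88e-05), as did Mcm4 (log2 change 1.69, SE 0.21, adjusted p = 1.89e-05), Mcm7 (log2 change 1.20, SE 0.19, adjusted p = 0.000137), Cdt1 (log2 change 1.21, SE 0.19, adjusted p = 0.000125) and Mcm3 (log2 change 1.15, SE 0.33, adjusted p = 0.0101). Gmnn fell most, with 3.80 and 8.96 FPKM in MII oocytes against 52.4 and 51.5 FPKM in GV oocytes (log2 change -2.94, SE 0.27, adjusted p = 1.34e-06). Mcm5 (log2 change -1.74, SE 0.14, adjusted p = 4.16e-07), Mcm2 (log2 change -1.14, SE 0.21, adjusted p = 0.000574) and Cdc6 (log2 change -0.94, SE 0.24, adjusted p = 0.00549) also fell, and Mcm6 did not pass (log2 change 0.21, SE 0.19, adjusted p = 0.373), although it did with quantile normalization (0.0443). Of the 6 genes with a CPE match, 4 rose and 2 (Mcm2 and Gmnn) fell. Of the 4 without one, Mcm3 rose and Mcm5 and Cdc6 fell. The call of Mcm3 ended without wild-type GV library 2 (adjusted p = 0.0877) and without wild-type MII library 2 (0.0751). Markers of blood cells summed to 85.0 and 50.3 FPKM in the wild-type MII libraries, with 3 and 2 of 6 markers at 1 FPKM or more (Hba-a1, a globin gene, at 66.1 and 44.5 FPKM), and to 0 to 10.9 FPKM in all others, and granulosa markers were high in the GV libraries as given above. The part of either in these changes was not tested.

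From MII to zygote in wild type, Mcm5 was the 1 licensing gene that rose, with 52.2 and 42.6 FPKM in zygotes against 21.1 and 17.2 FPKM in MII oocytes (log2 change 1.26, SE 0.14, adjusted p = 5.63e-05). None fell by limma. With an unadjusted p under 0.05, 4 genes were higher and 0 lower, beside 4810 of all 12311 genes in either direction. Blood markers, high in the wild-type MII libraries, summed to 2.25 and 0.224 FPKM in the wild-type zygotes, and their part was not tested. Over all genes 20.5% rose and 8% fell, 28.5% in all; the median change was 0.22, and it was 0.05 with median-of-ratios scaling. Without wild-type MII library 2, Gmnn rose as well (log2 change 1.22, adjusted p = 0.00315, against 0.69 and 0.078 with it). That library held 8.96 FPKM of Gmnn and the other wild-type MII library 3.80 FPKM. Of the calls of this step over all genes, 71.9% were rises, against 52.1% after median-of-ratios scaling, 51.8% after quantile normalization and 50.4% after a correction for transcript length.

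From zygote to 2-cell in wild type, Gmnn rose and 7 of the other 9 genes fell. Gmnn was at 148 and 170.3 FPKM in 2-cell embryos against 9.24 and 11.1 FPKM in zygotes, a ratio of means of 15.6 (log2 change 3.84, SE 0.27, adjusted p = 1.15e-07). Mcm4 fell to 6.03 and 5.56 FPKM in 2-cell embryos, against 59.8 and 60.4 FPKM in zygotes (log2 change -3.17, SE 0.21, adjusted p = 6.23e-08). Mcm7 (log2 change -2.33, SE 0.19, adjusted p = 3.48e-07), Mcm10 (log2 change -2.36, SE 0.36, adjusted p = 0.000109), Mcm5 (log2 change -1.51, SE 0.14, adjusted p = 1.37e-06), Cdt1 (log2 change -1.13, SE 0.19, adjusted p = 0.000193), Mcm6 (log2 change -0.74, SE 0.19, adjusted p = 0.00436) and Mcm3 (log2 change -0.83, SE 0.33, adjusted p = 0.0467) fell too. Mcm2 (log2 change 0.12, SE 0.21, adjusted p = 0.668) and Cdc6 (log2 change -0.56, SE 0.24, adjusted p = 0.0682) did not pass. Over all genes 27.1% rose and 30.2% fell, 57.4% in all, with a median of -0.06. The call of Mcm3 ended without any 1 of the 4 libraries compared (adjusted p = 0.059 to 0.257), with no filter (0.0762), with a pseudocount of 0.1 (0.0719) and with median-of-ratios scaling (0.114). Cdc6 passed with quantile normalization (0.0356). The median change of the 10 genes was 0.68 from GV to MII, 0.45 from MII to zygote and -0.98 from zygote to 2-cell.

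The next question was how the licensing mRNAs differed between the genotypes at each stage. At GV, 2 of the 10 genes were lower in the libraries labelled Btg4-/- and 0 were higher, against 6.46% lower and 1.45% higher of all genes (7.9% called). Cdt1 was at 8.99 and 7.06 FPKM in libraries labelled Btg4-/-, against 25.1 and 18.2 FPKM in wild type (log2 change -1.32, SE 0.19, adjusted p = 0.00185). Mcm2 was at 23.6 and 23.1 FPKM in libraries labelled Btg4-/- against 38.9 and 44.1 FPKM in wild type (log2 change -0.80, SE 0.21, adjusted p = 0.0383). The groups of libraries did not overlap in either gene, but both were chosen by their calls, and the share of all genes without overlap was not counted. At an unadjusted p under 0.05, 4 genes were lower and 0 higher, beside 2645 of all 12311 genes in either direction. Gmnn was at 78.9 and 74.5 FPKM in libraries labelled Btg4-/- and 52.4 and 51.5 FPKM in wild type. Mcm5 was at 53.0 and 48.8 FPKM in libraries labelled Btg4-/- and 64.5 and 67.4 FPKM in wild type. Neither passed (adjusted p = 0.269 and 0.148). Mcm10 was at 0.944 and 0.111 FPKM in libraries labelled Btg4-/- and 1.43 and 1.14 FPKM in wild type, low in both. The other members, Mcm3, Mcm4, Mcm6, Mcm7 and Cdc6, did not pass either, with log2 changes of -0.65, 0.09, -0.17, -0.51 and -0.14. The median of all genes was -0.12 and was 0 with median-of-ratios scaling, with which 53.1% of the calls were higher, against 18.3% as deposited (38.6% after quantile normalization, 40.4% after the length correction). The call of Mcm2 ended with these 3 (adjusted p = 0.125, 0.174 and 0.119), with no filter (0.0502) and without any 1 of the 4 libraries (0.121 to 0.213). When the 4 GV libraries were fitted by themselves, limma called 0 of all genes, and 2956 had an unadjusted p under 0.05. The adjusted p of Cdt1 was then 0.111 and that of Mcm2 0.089.

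At MII the subunits of 1 complex went opposite ways. In the libraries labelled Btg4-/-, 4 of the 10 genes were higher and 3 lower, against 29.1% higher and 23.3% lower of all genes, so 7 of 10 were called against 52.4%. Mcm4 was at 5.27 and 2.98 FPKM in libraries labelled Btg4-/-, against 41.8 and 48.3 FPKM in wild type, a wild-type mean 10.9 times as high (log2 change -3.20, SE 0.21, adjusted p = 6.88e-08). Mcm5 was at 78.2 and 73.5 FPKM in libraries labelled Btg4-/- against 21.1 and 17.2 FPKM in wild type, 3.96 times as high in the libraries labelled Btg4-/- (log2 change 1.94, SE 0.14, adjusted p = 1.81e-07). In neither gene, both chosen by their calls, did the groups overlap, and the share of all genes without overlap was not counted. Mcm2 was lower, at 5.59 and 4.33 FPKM in libraries labelled Btg4-/- against 14.9 and 22.4 FPKM in wild type (log2 change -1.70, SE 0.21, adjusted p = 2.06e-05), while Mcm6 was higher, at 38.7 and 39.9 FPKM in libraries labelled Btg4-/- against 26.0 and 25.3 FPKM in wild type (log2 change 0.60, SE 0.19, adjusted p = 0.0167). Mcm7 and Mcm3 did not pass; Mcm7 was at 39.5 and 43.8 FPKM in libraries labelled Btg4-/- and 45.7 and 45.5 FPKM in wild type, and Mcm3 at 14.1 and 14.2 FPKM in libraries labelled Btg4-/- and 16.9 and 21.4 FPKM in wild type. Blood cell markers also stood apart at MII, with sums of 1.53 and 0 FPKM in libraries labelled Btg4-/- against 85.0 and 50.3 FPKM in wild type, and Hba-a1 at 1.15 and 0 FPKM in libraries labelled Btg4-/- against 66.1 and 44.5 FPKM in wild type. Their part in the differences at MII was not tested.

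Among the other factors at MII, Mcm10 was lower in the libraries labelled Btg4-/-, at 2.47 and 5.94 FPKM against 10.7 and 11.6 FPKM in wild type (log2 change -1.31, SE 0.36, adjusted p = 0.00857). The loading factor Cdc6 was higher, at 7.84 and 12.2 FPKM in libraries labelled Btg4-/- against 4.502 and 4.80 FPKM in wild type (log2 change 0.94, SE 0.24, adjusted p = 0.00595), and so was Cdt1, at 70.3 and 80.0 FPKM in libraries labelled Btg4-/- against 51.0 and 50.4 FPKM in wild type (log2 change 0.56, SE 0.19, adjusted p = 0.0243). Gmnn was at 5.18 and 7.41 FPKM in libraries labelled Btg4-/- and 3.80 and 8.96 FPKM in wild type, groups that overlapped (log2 change 0.06, SE 0.27, adjusted p = 0.903). Cdt1 and Mcm6 lost their calls with quantile normalization (adjusted p = 0.564 and 0.392), where Mcm7 passed (-0.51, 0.0408), and with median-of-ratios scaling (0.0828 and 0.0686). Cdt1 also lost its call with the length correction (0.566), without library 2 labelled Btg4-/- (0.135) and without wild-type library 1 or 2 (0.0719 and 0.0849), and Mcm6 without any 1 of the 4 libraries (0.0511 to 0.071). Mcm10 lost it without library 1 labelled Btg4-/- (log2 change -0.81, adjusted p = 0.115) and with a pseudocount of 0.1 (0.0666), and Cdc6 without library 2 labelled Btg4-/- (0.0777). With the MII libraries fitted by themselves Mcm10 (0.091) and Cdc6 (0.0738) lost theirs. Without wild-type library 2, Gmnn was higher (0.59, 0.0428).

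Transcript length moved with this comparison. The median change at MII was 0.70 in the shortest and -0.39 in the longest of 4 equal groups of genes by length (11539 genes, 93.7% of those tested, with a length in GENCODE M21). These medians were 0.44 and -0.41 in the zygote and 0.22 and -0.28 at 2-cell, and -0.53 and 0.35 for wild type from GV to MII. By the longest transcript of each gene, Gmnn is short (1127 bases, at percentile 10.8 of the tested genes) and Cdt1 is shorter than most (2189 bases, percentile 35.5), while the ring subunits have 2962 to 4355 bases (percentiles 52.4 to 75.1). The longest of these is Mcm6, whose principal transcript has 2910 bases. With the length correction Gmnn was lower in the libraries labelled Btg4-/- at MII (log2 change -0.87, adjusted p = 0.0187). Mcm4 and Mcm5, with 3589 and 3381 bases, kept their calls with it. The correction was run in every contrast, and the calls that it changed are given with each. How length comes to move with the comparison was not tested.

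**Figure D2:**
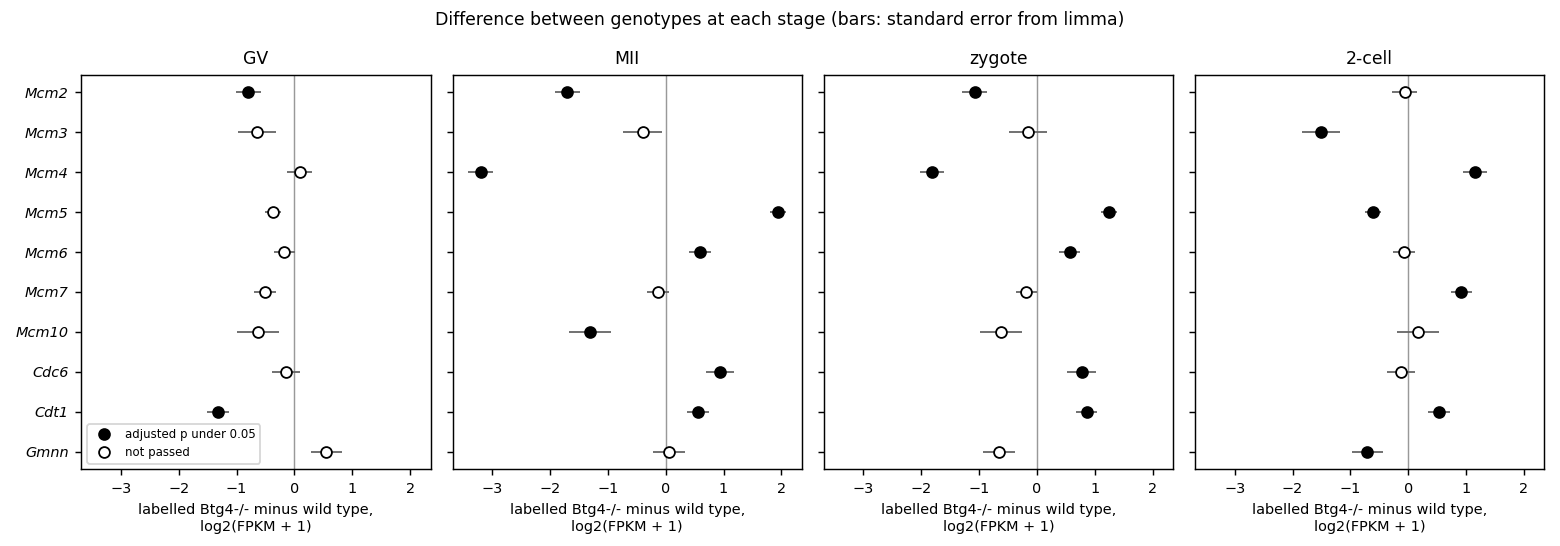
Difference between genotypes in log2(FPKM + 1), libraries labelled Btg4-/- minus wild type, for each gene at each stage; bars are standard errors from limma and filled points passed the adjusted threshold of 0.05. At MII Mcm4 lies at -3.20 and Mcm5 at 1.94, and at 2-cell Mcm4 lies right of 0 at 1.15.

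In the zygote the same 2 subunits stood furthest apart. Of the 10 genes, 4 were higher and 2 lower in the libraries labelled Btg4-/-, against 24.4% and 23.3% of all genes (47.7% called). Mcm4 was lower, at 17.1 and 15.7 FPKM in zygotes labelled Btg4-/- against 59.8 and 60.4 FPKM in wild type (log2 change -1.81, SE 0.21, adjusted p = 1.45e-05), and Mcm2 too, at 10.3 and 9.25 FPKM in libraries labelled Btg4-/- against 21.2 and 22.4 FPKM in wild type (log2 change -1.08, SE 0.21, adjusted p = 0.00104). Mcm5 was higher, at 115 and 111 FPKM in libraries labelled Btg4-/- against 52.2 and 42.6 FPKM in wild type (log2 change 1.24, SE 0.14, adjusted p = 1.26e-05). Cdt1 was at 123 and 104 FPKM in libraries labelled Btg4-/- against 62.8 and 61.1 FPKM in wild type (log2 change 0.86, SE 0.19, adjusted p = 0.00209), the highest level of any of the 10 genes in the zygotes labelled Btg4-/- beside Mcm5. Cdc6 was at 11.6 and 13.2 FPKM in libraries labelled Btg4-/- against 5.80 and 7.99 FPKM in wild type (log2 change 0.77, SE 0.24, adjusted p = 0.0199) and Mcm6 at 59.6 and 48.9 FPKM in libraries labelled Btg4-/- against 34.3 and 38.2 FPKM in wild type (log2 change 0.56, SE 0.19, adjusted p = 0.0245). Gmnn was at 6.63 and 5.56 FPKM in libraries labelled Btg4-/- against 9.24 and 11.1 FPKM in wild type and did not pass (log2 change -0.66, SE 0.27, adjusted p = 0.0649), but passed with median-of-ratios scaling (0.0363) and the length correction (0.002). Mcm3, Mcm7 and Mcm10 did not pass either, with log2 changes of -0.15, -0.18 and -0.62. The call of Cdc6 ended without library 2 labelled Btg4-/- (adjusted p = 0.106) or wild-type library 1 (0.156). That of Mcm6 ended with both scalings (0.0625 and 0.121) and without library 1 labelled Btg4-/- (0.174) or wild-type library 1 or 2 (0.128 and 0.0516). With the zygote libraries fitted by themselves both lost their calls (0.0593 and 0.0503).

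At the 2-cell stage Mcm4 had changed sides. It was at 16.01 and 12.4 FPKM in the embryos labelled Btg4-/-, against 6.03 and 5.56 FPKM in wild type (log2 change 1.15, SE 0.21, adjusted p = 0.000576), and Mcm5 was the lower one, at 10.3 and 9.73 FPKM in libraries labelled Btg4-/- against 15.8 and 15.9 FPKM in wild type (log2 change -0.61, SE 0.14, adjusted p = 0.00309). Of the 10 genes, 3 were higher and 3 lower, against 22.6% and 26.4% of all genes (49% called). Mcm7 was higher, at 27.6 and 18.2 FPKM in libraries labelled Btg4-/- against 12.6 and 10.3 FPKM in wild type (log2 change 0.92, SE 0.19, adjusted p = 0.0013), and Mcm3 was lower, at 2.64 and 3.78 FPKM in libraries labelled Btg4-/- against 12.8 and 9.13 FPKM in wild type (log2 change -1.51, SE 0.33, adjusted p = 0.00215). Cdt1 was at 46.9 and 35.1 FPKM in libraries labelled Btg4-/- against 26.7 and 28.8 FPKM in wild type (log2 change 0.54, SE 0.19, adjusted p = 0.0307) and Gmnn at 93.3 and 101 FPKM in libraries labelled Btg4-/- against 148 and 170.3 FPKM in wild type (log2 change -0.70, SE 0.27, adjusted p = 0.048). In none of these 6 genes, which were chosen by their calls, did the libraries of the groups overlap. The share of all genes without overlap was not counted. Mcm2, Mcm6, Mcm10 and Cdc6 did not pass, with log2 changes between -0.13 and 0.17.

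Of the 2-cell calls, that of Gmnn ended without any 1 of the 4 libraries (adjusted p = 0.096 to 0.208), with a pseudocount of 0.1 (0.0833) and with no filter (0.0783), while with quantile normalization its change was -1.35. That of Cdt1 ended after median-of-ratios scaling (0.0587) and quantile normalization (0.101), without library 1 labelled Btg4-/- (log2 change 0.33, adjusted p = 0.232) and without wild-type library 1 or 2 (0.117 and 0.0651). With the fit on the 4 libraries of the stage alone, Cdt1, Mcm5 and Mcm7 lost their calls (adjusted p = 0.123, 0.0604 and 0.0903). Markers of embryonic genome activation at the 2-cell stage, such as Zscan4 and Tdpoz genes, summed to 8.30 and 17.3 FPKM in the embryos labelled Btg4-/-, against 258 and 177 FPKM in wild type. Their part in the differences of the licensing genes was not tested. The median difference of the 10 genes between genotypes was -0.44 at GV, -0.03 at MII, -0.17 in the zygote and -0.07 at 2-cell, beside -0.12, 0.09, 0.01 and -0.05 over all genes.

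Within the libraries labelled Btg4-/-, maturation moved 9 of the 10 genes: 6 rose and 3 fell from GV to MII, against 27.3% and 18.1% of all genes (45.4% called; median change 0.14, and -0.02 with median-of-ratios scaling). Cdt1 rose to 70.3 and 80.0 FPKM in MII oocytes, against 8.99 and 7.06 FPKM in GV oocytes (log2 change 3.08, SE 0.19, adjusted p = 3.62e-08). Mcm10 (log2 change 1.74, SE 0.36, adjusted p = 0.00153), Mcm7 (log2 change 1.58, SE 0.19, adjusted p = 1.51e-05), Mcm3 (log2 change 1.40, SE 0.33, adjusted p = 0.00362), Mcm6 (log2 change 0.98, SE 0.19, adjusted p = 0.000749) and Mcm5 (log2 change 0.57, SE 0.14, adjusted p = 0.0052) rose as well. Gmnn (log2 change -3.43, SE 0.27, adjusted p = 4.11e-07), Mcm2 (log2 change -2.04, SE 0.21, adjusted p = 4.84e-06) and Mcm4 (log2 change -1.60, SE 0.21, adjusted p = 3.66e-05) fell, and Cdc6 did not pass (log2 change 0.14, SE 0.24, adjusted p = 0.71). Mcm5 lost its call with median-of-ratios scaling (log2 change 0.15, adjusted p = 0.469), quantile normalization (0.37, 0.0628) and the length correction (0.29, 0.122). Mcm3 lost it without GV library 2 labelled Btg4-/- (0.87, 0.0542), and with the 4 contrasted libraries alone Mcm3 (0.0796) and Mcm10 (0.0769) lost theirs. The change of Mcm6 was 0.57 with median-of-ratios scaling and that of Mcm10 was 3.07 with a pseudocount of 0.1. Of all calls of this step, 60.2% were rises, against 46% with median-of-ratios scaling and 49.9% with the length correction.

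From MII to zygote in the libraries labelled Btg4-/-, Mcm4 (log2 change 1.8, SE 0.21, adjusted p = 0.000231), Mcm10 (log2 change 1.46, SE 0.36, adjusted p = 0.0171), Mcm2 (log2 change 0.86, SE 0.21, adjusted p = 0.0165) and Mcm5 (log2 change 0.57, SE 0.14, adjusted p = 0.0171) rose, 4 of 10 genes against 10.3% of all genes (15.7% called). None fell by limma, against 5.38% of all genes. At an unadjusted p under 0.05, 6 of the 10 genes were higher and 0 lower, beside 3561 of all 12311 genes in either direction. The call of Mcm4 held without each library in turn and ended with the 4 contrasted libraries alone (0.063), as did those of Mcm2 (0.0883) and Mcm10 (0.141). Mcm2 lost its call without MII library 2 (0.125) or zygote library 1 or 2 (0.0966 and 0.0655), and Mcm5 without any 1 of the 4 libraries (0.06 to 0.1). Mcm10 lost it without MII library 1 (0.96, 0.166) or zygote library 2 (0.137) and with a pseudocount of 0.1 (0.111). With the length correction Mcm4 was the 1 gene called (adjusted p of the other 3, 0.0595 to 0.132), quantile normalization ended the calls of Mcm2 (0.081) and Mcm10 (0.0531), and median-of-ratios scaling that of Mcm5 (0.36, 0.127). Cdt1 (log2 change 0.59, SE 0.19, adjusted p = 0.0516) passed with a filter at 5 FPKM (0.0389) and with quantile normalization (0.0183). Of all calls, 65.8% were rises, against 42% with median-of-ratios scaling and 51% with the length correction.

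From zygote to 2-cell in the libraries labelled Btg4-/-, Gmnn (log2 change 3.79, SE 0.27, adjusted p = 2.44e-07) and Mcm2 (log2 change 1.14, SE 0.21, adjusted p = 0.000787) rose and 7 genes fell, against 18.3% and 28.2% of all genes (46.5% called). Mcm5 fell most, to 10.3 and 9.73 FPKM in 2-cell embryos, against 115 and 111 FPKM in zygotes (log2 change -3.37, SE 0.14, adjusted p = 2.36e-09). Mcm3 (log2 change -2.18, SE 0.33, adjusted p = 0.000149), Mcm10 (log2 change -1.56, SE 0.36, adjusted p = 0.00345), Cdt1 (log2 change -1.46, SE 0.19, adjusted p = 3.85e-05), Mcm6 (log2 change -1.38, SE 0.19, adjusted p = 5.98e-05), Cdc6 (log2 change -1.46, SE 0.24, adjusted p = 0.000338) and Mcm7 (log2 change -1.23, SE 0.19, adjusted p = 0.000154) fell as well. Mcm4, at 16.01 and 12.4 FPKM in 2-cell embryos and 17.1 and 15.7 FPKM in zygotes, did not pass (log2 change -0.20, SE 0.21, adjusted p = 0.467). The median of all genes was -0.17, and -0.05 with median-of-ratios scaling.

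Whether a step differed between the genotypes was tested as an interaction, the step in the libraries labelled Btg4-/- minus the step in wild type. For GV to MII, 4 of the 10 genes were higher and 2 lower, against 26.5% and 16% of all genes (42.5% called). Mcm4 differed most: it fell in the libraries labelled Btg4-/- and rose in wild type (log2 change -3.29, SE 0.30, adjusted p = 2.61e-06). Mcm5 did the reverse (log2 change 2.31, SE 0.20, adjusted p = 1.94e-06). Cdt1 rose more in the libraries labelled Btg4-/- (log2 change 1.88, SE 0.26, adjusted p = 9.96e-05), a value of 1.16 with quantile normalization, and Mcm2 fell more (log2 change -0.90, SE 0.30, adjusted p = 0.0284). Cdc6 (log2 change 1.08, SE 0.35, adjusted p = 0.0238) and Mcm6 (log2 change 0.77, SE 0.26, adjusted p = 0.0321) lost their calls with median-of-ratios scaling (0.0936 and 0.277) and quantile normalization (0.69, 0.108, and 0.19, 0.62). Mcm2 lost its call without GV library 1 or 2 or MII library 2 labelled Btg4-/-, or without wild-type GV library 1 or MII library 2 (adjusted p = 0.0626 to 0.121), and with the contrasted libraries alone (0.0583). Cdc6 lost it without GV or MII library 2 labelled Btg4-/- or without wild-type GV or MII library 1 (0.0572 to 0.105), and Mcm6 without any of the 8 libraries other than GV library 2 labelled Btg4-/- (0.0557 to 0.13). Gmnn (log2 change -0.49, SE 0.39, adjusted p = 0.34) passed after the length correction (-1.47, 0.00984) and without wild-type MII library 1 (-1.02, 0.0117), and was at 0.04 without wild-type MII library 2. Of all calls, 62.4% were higher, against 51.1% after median-of-ratios scaling, 48.3% after quantile normalization and 50.1% after the length correction. The median of all genes was 0.22, and 0.02 with median-of-ratios scaling.

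For MII to zygote, Mcm4 rose more in the libraries labelled Btg4-/- (log2 change 1.39, SE 0.30, adjusted p = 0.00954) and Mcm5 less (log2 change -0.70, SE 0.20, adjusted p = 0.0406), 2 of 10 genes against 12.2% of all genes (4.95% higher and 7.25% lower). The call of Mcm5 ended without any of the 8 libraries other than wild-type MII library 1 and zygote library 2 (adjusted p = 0.0816 to 0.149) with both scalings (0.0678 and 0.259) and with the length correction (0.0622). With the contrasted libraries alone neither was called (0.0501 for Mcm4 and 0.0804 for Mcm5). For zygote to 2-cell, 3 genes were higher in this difference and 3 lower, against 22.2% and 25.9% of all genes (48% called). Mcm4 fell in wild type with no called change in the libraries labelled Btg4-/- (log2 change 2.97, SE 0.30, adjusted p = 5.27e-06), and Mcm7 fell less in the libraries labelled Btg4-/- (log2 change 1.101, SE 0.27, adjusted p = 0.00419). Mcm2 rose in the libraries labelled Btg4-/- with no called change in wild type (log2 change 1.02, SE 0.30, adjusted p = 0.0138). Mcm5 (log2 change -1.86, SE 0.20, adjusted p = 9.71e-06), Mcm3 (log2 change -1.35, SE 0.47, adjusted p = 0.0301) and Cdc6 (log2 change -0.90, SE 0.35, adjusted p = 0.0481) fell more in the libraries labelled Btg4-/-. Without 2-cell library 2 labelled Btg4-/- the adjusted p of Mcm2 was 0.0558. Mcm3 lost its call without zygote or 2-cell library 1 labelled Btg4-/- or without wild-type zygote library 1 or 2 or 2-cell library 1 (0.0631 to 0.123). Cdc6 lost it without any of the 8 libraries other than 2-cell library 2 labelled Btg4-/- and wild-type zygote library 2 (0.067 to 0.166). Mcm6 passed without 2-cell library 2 labelled Btg4-/- (-0.82, 0.0305), and Gmnn, from MII to zygote, without wild-type MII library 2 (-1.25, 0.0182). Quantile normalization also ended the call of Cdc6 (0.116), as did a pseudocount of 0.1 (0.0591), no filter (0.0561) and the contrasted libraries alone (0.0725). The length correction (0.053) and no filter (0.0519) ended that of Mcm3. For MII to zygote 40.6% of all calls were higher, against 56.4% after quantile normalization and 53.5% after the length correction. The medians of all genes were -0.11 for MII to zygote and -0.12 for zygote to 2-cell, and 0.00 and 0.01 with quantile normalization.

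The sum of the ring subunits' mRNA overlapped between the genotypes from MII on, while its makeup stood apart for some subunits at every stage, most widely for Mcm4 and Mcm5 at MII. The sum of the FPKM of Mcm2 to Mcm7 was 126.5 ± 2.86 FPKM in the GV libraries labelled Btg4-/- and 170.2 ± 2.23 FPKM in wild type (SD, n = 2 each). At MII it was 180.04 ± 1.91 FPKM in libraries labelled Btg4-/- and 173 ± 9.77 FPKM in wild type, in zygotes 266 ± 20.2 FPKM labelled Btg4-/- and 247 ± 10.9 FPKM in wild type, and at 2-cell 93.6 ± 0.479 FPKM labelled Btg4-/- and 89.2 ± 6.83 FPKM in wild type. The libraries of the genotypes overlapped in this sum at these 3 stages and not at GV. Mcm5 made up 43.1% and 41.2% of the sum in the MII libraries labelled Btg4-/-, against 12.7% and 9.54% in wild type. Mcm4 made up 2.91% and 1.67% in the MII libraries labelled Btg4-/-, against 25.1% and 26.8% in wild type. At GV the libraries of the genotypes did not overlap in the shares of Mcm2 (18.4% and 18.6% labelled Btg4-/- against 23.1% and 25.7% in wild type) and Mcm4 (11.6% and 10.8% labelled Btg4-/- against 7.64% and 7.93% in wild type). Mcm7 did not overlap there either (10.6% and 10.3% labelled Btg4-/- against 11.9% and 10.9% in wild type). None of these shares was tested, and the share of all genes without overlap was not counted. At 2-cell Mcm4 made up 17.04% and 13.3% in embryos labelled Btg4-/-, against 6.41% and 6.59% in wild type, and Mcm7 29.4% and 19.6% labelled Btg4-/- against 13.4% and 12.2% in wild type. Mcm3, at 2.81% and 4.05% labelled Btg4-/- against 13.6% and 10.8% in wild type, and Mcm5, at 10.97% and 10.4% labelled Btg4-/- against 16.8% and 18.8% in wild type, took smaller shares there. The most abundant subunit was 14.8 and 24.7 times as high as the least abundant one in the MII libraries labelled Btg4-/-, against 3.07 and 2.81 times in wild type. In zygotes labelled Btg4-/- these ratios were 11.1 and 12.0, against 3.48 and 2.94 in wild type, and at 2-cell they were 10.5 and 6.91 in embryos labelled Btg4-/-, against 4.37 and 3.98 in wild type. At GV they were 7.25 and 16.3 in the libraries labelled Btg4-/- and 6.79 and 10 in wild type. These are values of mRNA per length and say nothing of the protein ring, in which the 6 subunits are present in equal number.

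**Figure D3:**
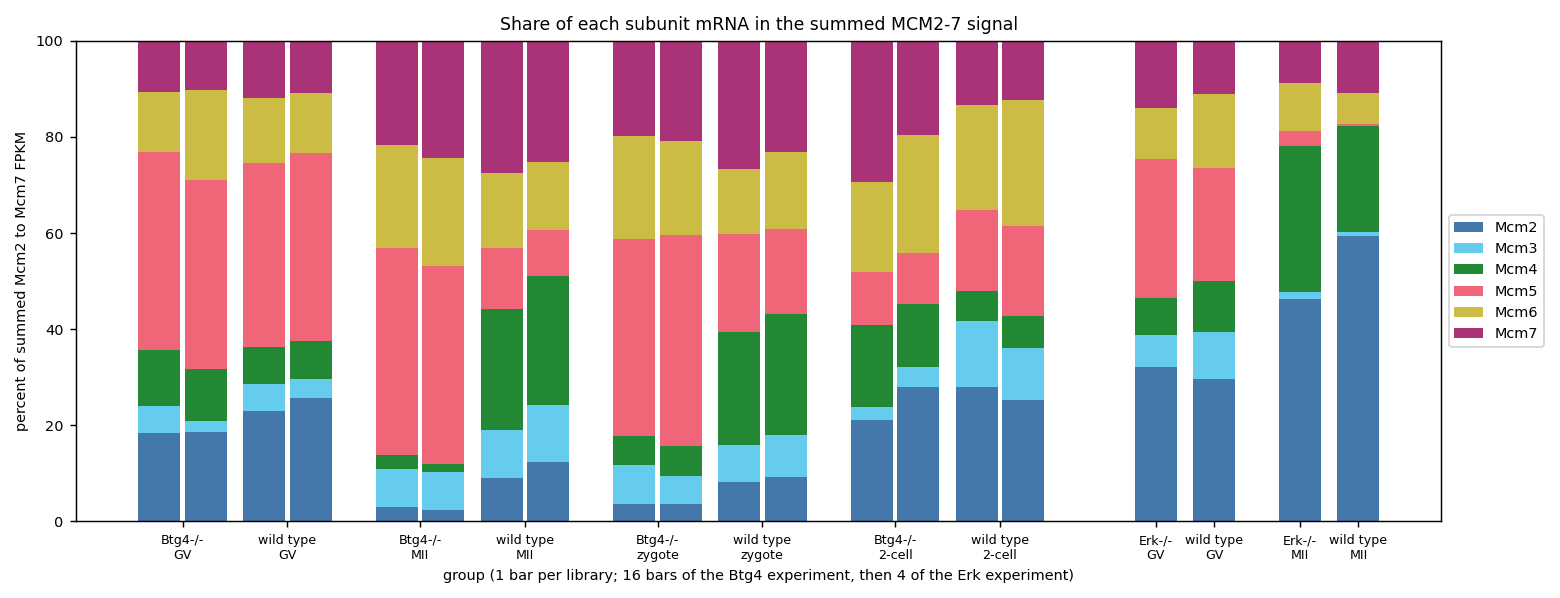
Percent of the summed Mcm2 to Mcm7 FPKM that each subunit makes up, 1 bar per library, with libraries labelled Btg4-/- or Erk-/- left of wild type at each stage. At MII and in the zygote Mcm5 (red) takes 41.1% to 44.1% of the sum in the libraries labelled Btg4-/-, against 9.54% to 20.4% in wild type, and Mcm4 (green) 1.67% to 6.23% against 23.4% to 26.8%.

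Cdt1 and Gmnn, the loader and its inhibitor, exchanged places along the stages in both genotypes. At GV, Gmnn was 8.77 and 10.5 times as high as Cdt1 in the libraries labelled Btg4-/-, against 2.09 and 2.83 times in wild type. At MII Cdt1 was 13.6 and 10.8 times as high as Gmnn in the libraries labelled Btg4-/-, against 13.4 and 5.62 times in wild type, and in the zygote 18.5 and 18.7 times labelled Btg4-/- against 6.79 and 5.48 times in wild type. At 2-cell Gmnn was again the higher one, 1.99 and 2.88 times as high as Cdt1 in the libraries labelled Btg4-/-, against 5.56 and 5.92 times in wild type. The libraries of the genotypes overlapped in this ratio at MII and at no other stage. In proportion to Gmnn, Cdt1 was at a lower level in the libraries labelled Btg4-/- than in wild type at GV and at a higher level in the zygote and at 2-cell. The ratio was not tested, and 12 of the 20 values of Gmnn lie above their own deposited interval.

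**Figure D4:**
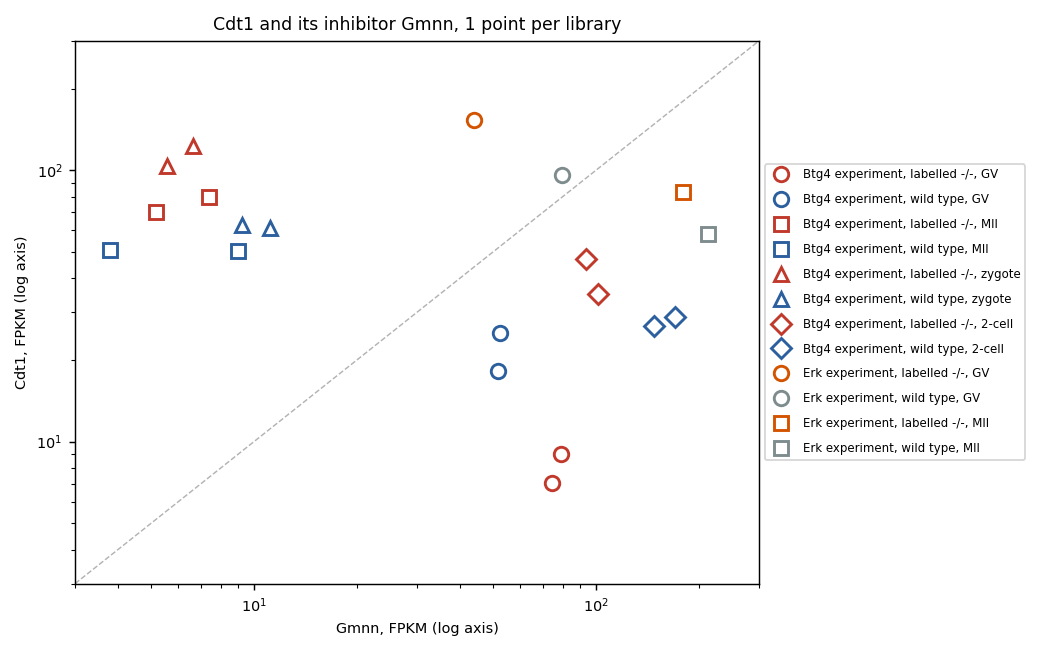
FPKM of Cdt1 against FPKM of Gmnn on log axes, 1 point per library of both experiments; the dashed line marks equal FPKM. MII oocytes and zygotes of the Btg4 experiment lie at the upper left, with 3.80 to 11.1 FPKM of Gmnn, whereas the 2 MII oocyte libraries of the Erk experiment lie below the line at 179 and 213 FPKM of Gmnn.

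The neighbours of licensing in the replication pathway were followed as 5 lists of 64 genes, 62 of which were tested. In the libraries labelled Btg4-/-, 2 were higher and 2 lower at GV, 19 higher and 24 lower at MII, 17 and 24 in the zygote, and 25 and 11 at 2-cell, where the shares of all genes are those given above. The medians of the 62 genes were -0.23, -0.09, -0.13 and 0.30, beside -0.12, 0.09, 0.01 and -0.05 over all genes. Of the 7 origin recognition genes, 3 were higher and 1 lower at MII. Orc2 was higher at MII (log2 change 0.63, adjusted p = 0.0152) and Orc6 lower (-0.74, 0.00336), as it was in the zygote (-0.77, 0.00284). Orc1 was lower in the zygote (-1.07, 0.00166) and at 2-cell (-0.72, 0.018), and Orc2 was lower at 2-cell (-0.96, 0.00126). Of 4 other MCM genes, 3 were lower at MII and 0 higher, among them Mcmbp, whose product binds MCM subunits outside the ring, at 1.76 and 3.11 FPKM in libraries labelled Btg4-/- against 11.6 and 16.6 FPKM in wild type (log2 change -2.15, SE 0.23, adjusted p = 6.1e-06), and lower in the zygote as well (-2.13, 8.7e-06). Mcm8 was lower at MII (-0.90, 0.0381) and higher at 2-cell (0.86, 0.0492), and Mcm9, its partner in recombination repair, did not pass at any stage (0.46, 0.39, 0.05 and 0.41 from GV to 2-cell).

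Of the 13 genes of helicase activation, 3 were higher and 5 lower at MII and 3 and 7 in the zygote. Gins1, a subunit of the GINS complex, was at 154 and 152 FPKM in the MII libraries labelled Btg4-/-, against 26.8 and 18.3 FPKM in wild type (log2 change 2.73, SE 0.20, adjusted p = 2.04e-07), and was higher in the zygote (1.56, 3.79e-05) and at 2-cell (1.97, 5.05e-06). Cdc45, with which GINS and the ring form the active helicase, was at 6.62 and 7.49 FPKM in the zygotes labelled Btg4-/-, against 46.0 and 32.7 FPKM in wild type (log2 change -2.31, SE 0.21, adjusted p = 2e-06). It was lower at MII too (-1.49, 6.36e-05) and higher at 2-cell, at 37.1 and 41.5 FPKM in embryos labelled Btg4-/- against 27.6 and 23.3 FPKM in wild type (0.61, 0.0308). Dbf4, the activator of the CDC7 kinase that phosphorylates loaded MCM rings, was lower at MII (-2.04, adjusted p = 7.98e-07), in the zygote (-1.56, 1.2e-05) and at 2-cell (-0.81, 0.00214). Cdc7 itself was lower in the zygote (-1.48, 0.000795) and higher at 2-cell (0.82, 0.0273), and Topbp1, a scaffold of helicase assembly, did not pass at any stage (-0.35, 0.73, 0.80 and -0.17 from GV to 2-cell).

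At the fork, 11 of 28 genes were higher and 10 lower at MII, and 14 were higher and 2 lower at 2-cell. Pcna, the sliding clamp, was at 44.4 and 41.8 FPKM in the MII libraries labelled Btg4-/-, against 192 and 216 FPKM in wild type (log2 change -2.21, SE 0.11, adjusted p = 5.95e-09), and at 296 and 268 FPKM at 2-cell, against 119 and 121 FPKM in wild type (log2 change 1.22, SE 0.11, adjusted p = 1.29e-06); in the zygote it was lower (-2.84, 1.55e-09). Pola1, the catalytic subunit of DNA polymerase alpha, was lower at MII and in the zygote (-1.34 and -1.60; adjusted p = 0.00393 and 0.00139). Rpa2, a subunit of the single-strand binding complex, was higher at MII and in the zygote (1.64 and 1.27; 0.000132 and 0.0012) and lower at 2-cell (-0.89; 0.0111). Of the 10 tested genes for the turnover of licensing factors, 2 were higher and 5 lower at MII. Dtl, the adaptor through which the CUL4-DDB1 ligase destroys CDT1 in S phase, was lower at MII (log2 change -2.19, SE 0.21, adjusted p = 2.06e-06) and in the zygote (log2 change -1.53, SE 0.21, adjusted p = 6.34e-05). Ddb1 was higher in the zygote (log2 change 1.24, SE 0.19, adjusted p = 0.000153).

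The 10 genes did not vary as 1 unit over the 8 group means of the Btg4 experiment. Of the 45 pairs among them, 1 had a Pearson r above 0.9 on the log2 scale and 18 had an r below 0. That pair was Mcm5 and Cdc6 (r = 0.984), and the lowest r was that of Mcm7 and Gmnn (-0.926). The 8 means share genotypes and stages, so these values are descriptions with no p. Among 6300 other genes with a mean of at least 5 FPKM, the 2 most like Mcm5 were Eif2b4 (r = 0.984) and Acot7 (0.959), and the 2 most like Cdc6 were Eif2b4 (0.99) and Zkscan14 (0.976). Mcm4 was closest to Eri2 (0.972) and Ncoa4 (0.97), Mcm2 to Cdyl (0.974) and Crlf3 (0.964), Mcm3 to Esrrb (0.962) and Prmt5 (0.96), and Mcm6 to Cdc37 (0.979) and Hdac6 (0.976). Mcm7 was closest to Nelfcd (0.994) and Prep (0.988), Mcm10 to Psmd11 (0.995) and Sel1l (0.993), Cdt1 to Ftsjd2 (0.987) and Iars (0.986), and Gmnn to Seh1l (0.995) and Omt2a (0.983).

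The promoters of Mcm5 and Cdc6, the pair that moved most alike, are shown for their E2F-type motifs, since many licensing genes are E2F targets in cycling cells. The motifs TTTCCCGC, TTTCGCGC, TTTGCCGC and TTTGGCGC were searched on both strands in windows from 250 bases before to 50 bases after the start site (RefSeq, GRCm38.p6). A match was found for 6 of the 8 genes with a window (Mcm3, Mcm5, Mcm6, Mcm7, Cdc6 and Cdt1), and in 2.26% of all 32851 windows. The former counts genes and the latter windows, of which a gene such as Mcm7 can have more than 1. The share of all genes with a match was not counted. No match was found for Mcm2 and Mcm10. The 250 bases before the start site are printed 5′ to 3′ on the strand of the gene, with matches in capitals. For Mcm5 they lie at chr8:75109259-75109508 on the plus strand and hold 2 matches on opposite strands that overlap by 4 bases. For Cdc6 they lie at chr11:98907901-98908150 on the plus strand and hold 1 match on the opposite strand.
Mcm5: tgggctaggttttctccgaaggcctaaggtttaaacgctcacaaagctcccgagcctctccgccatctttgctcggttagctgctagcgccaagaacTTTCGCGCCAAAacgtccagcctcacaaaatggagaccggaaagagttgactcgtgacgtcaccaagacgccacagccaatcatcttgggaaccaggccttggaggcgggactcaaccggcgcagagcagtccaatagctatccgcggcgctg
Cdc6: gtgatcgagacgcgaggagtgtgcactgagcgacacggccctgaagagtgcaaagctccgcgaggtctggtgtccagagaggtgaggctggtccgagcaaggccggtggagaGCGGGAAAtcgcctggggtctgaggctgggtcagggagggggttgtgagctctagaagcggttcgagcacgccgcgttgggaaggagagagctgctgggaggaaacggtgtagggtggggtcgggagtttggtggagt
Neither the pair's likeness nor the other 4 genes' courses were tested against these motifs.

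In the Erk experiment each group is 1 library, so values are given with no test and no p; a difference of at least 2-fold on the log2(FPKM + 1) scale is the size counted. The wild-type libraries stood apart from those of the Btg4 experiment of the same stage. Btg4, given above for the Btg4 experiment, was at 1565 FPKM at MII and 250.2 FPKM at GV in the libraries labelled Erk-/-, and at 2987 FPKM at MII and 216 FPKM at GV in wild type, the reverse of its order in the wild-type Btg4 experiment. Orc6 was at 252 FPKM at MII and 32.5 FPKM at GV in the wild-type Erk libraries, against 15.8 and 18.2 FPKM at MII and 280.4 and 314 FPKM at GV in wild type of the Btg4 experiment. Both genes thus go against the stage pattern of the Btg4 experiment. Across 10335 genes, a description with no p since genes are not replicates, the wild-type GV library of the Erk experiment had a Pearson r of 0.616 with wild-type GV of the Btg4 experiment, 0.704 with wild-type zygotes and 0.717 with zygotes labelled Btg4-/-. Its MII counterpart had an r of 0.659 with wild-type MII, its highest with any group of the Btg4 experiment. Its r was 0.632 with wild-type zygotes and 0.501 with wild-type GV. At GV, 1 of the 10 genes was past that size, against 42.2% of 11404 genes at 1 FPKM or more. Mcm10 was at 19.9 FPKM in the library labelled Erk-/-, with a deposited interval of 17.6 to 22.0 FPKM, against 52.1 FPKM in wild type (47.7 to 53.9 FPKM). At MII, 2 of 10 genes were past it, both higher, against 30.7% higher and 8.08% lower of all genes (38.8% in all). Mcm5 was at 10.9 FPKM in the library labelled Erk-/- (interval 9.54 to 12.1 FPKM) against 2.03 FPKM in wild type (1.57 to 2.50 FPKM). Cdc6 was at 3.33 FPKM in the library labelled Erk-/- (2.77 to 3.89 FPKM) against 0.627 FPKM in wild type (0.404 to 0.849 FPKM). The intervals cover the authors' estimate of counting error and not the spread between animals. The all-gene median at MII was 0.26.

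Mcm5 and Cdc6 were also the members with the largest drops from GV to MII in both genotypes of the Erk experiment. In the library labelled Erk-/- 2 genes were at least 2-fold higher in MII oocytes and 3 lower, against 23.9% and 33.4% of all genes (57.3% in all). In wild type 3 were higher and 4 lower, against 20.4% and 46.9% (67.3% in all). Mcm5 was at 10.9 FPKM in MII oocytes labelled Erk-/- against 87.8 FPKM in GV oocytes (log2 difference -2.90), and at 2.03 FPKM against 59.2 FPKM in wild type (-4.31). Mcm4 was higher at MII in both, at 104 FPKM against 22.9 FPKM in libraries labelled Erk-/- (2.13) and 98.1 FPKM against 26.9 FPKM in wild type (1.83). Gmnn, 2.01 and 1.41 higher at MII on the log2 scale, reached 179 FPKM in the MII library labelled Erk-/- and 213 FPKM in wild type, against 43.9 FPKM and 79.3 FPKM at GV. Mcm3 was lower at MII by both (-1.75 and -2.41), as was Cdc6 (-1.79 and -3.09), and in wild type Mcm2 was higher (1.79) and Mcm10 lower (-1.63). Cdt1, Mcm6 and Mcm7 stayed under 2-fold in both genotypes.

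Set beside the Btg4 experiment, the wild-type maturation steps of the 2 experiments went the same way for 4 of the 10 genes: Mcm4 (log2 difference 1.83 in the Erk experiment and 1.69 in the Btg4 experiment), Mcm5 (-4.31 and -1.74), Mcm7 (0.77 and 1.20) and Cdc6 (-3.09 and -0.94). They went opposite ways for the other 6. The all-gene median of the wild-type step was -0.76 in the Erk experiment and -0.02 in the Btg4 experiment. Mcm6 (-0.45) and Cdt1 (-0.71) lay above that median of the Erk experiment, so their sign depends on the scaling, and Mcm6 did not pass in the Btg4 experiment (0.21). Gmnn shows the widest gap: at MII it was at 213 FPKM in the wild-type library of the Erk experiment and at 3.80 and 8.96 FPKM in those of the Btg4 experiment. Oocyte markers summed to 23275 FPKM in the wild-type GV library of the Erk experiment, against 2736 and 2597 FPKM in those of the Btg4 experiment, and at MII to 7582 FPKM in the Erk experiment against 6780.0 and 6950 FPKM in the Btg4 experiment. Differences between the experiments and differences between their oocytes cannot be told apart.

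**Figure D5:**
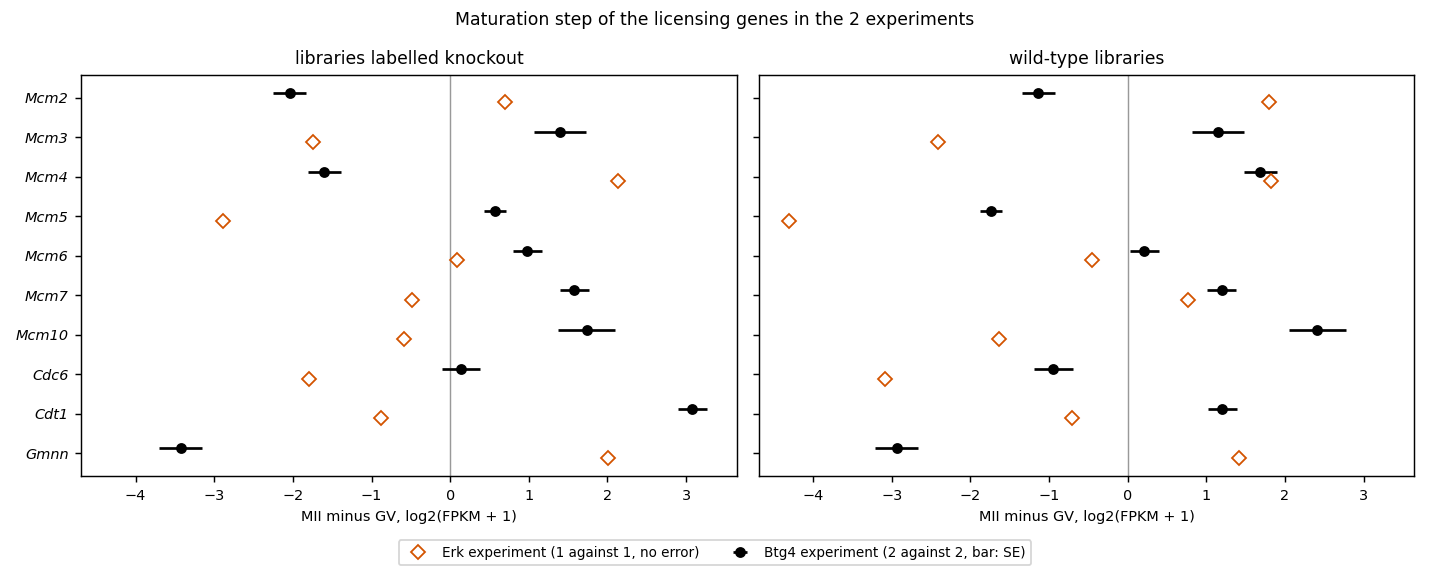
MII minus GV in log2(FPKM + 1) for each gene, in libraries labelled knockout (left panel) and wild type (right panel). Filled points are the Btg4 experiment with standard errors from limma (2 against 2 libraries) and open diamonds the Erk experiment (1 against 1, no error); in wild type Mcm4 lies at 1.83 in the Erk and 1.69 in the Btg4 experiment, while Gmnn lies at 1.41 and -2.94.

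The precision of single values follows from the deposited intervals around each FPKM. Taken as 4 SDs wide, they correspond to 15.3 fragments for the shallowest value of Gmnn, 31.8 for Cdc6 and 128.9 for Mcm6, and to 6266 for the deepest value of Mcm2. The lowest value of Mcm10, 0.111 FPKM in GV library 2 labelled Btg4-/-, has an interval of 0 to 0.259 FPKM and so gives no such number. Of the 200 values of the 10 genes, 184 lay inside their own interval. The other 16 were above their interval's upper bound: 12 values of Gmnn, 3 of Cdt1 and 1 of Mcm2. Gmnn in the wild-type MII library of the Erk experiment was at 213 FPKM with an interval of 169 to 191 FPKM.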

How the data were processed

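The authors sequenced mRNA libraries as paired ends; CASAVA 1.8, TopHat and Cufflinks with the mouse build mm9 are named in the submitters' processing notes, with a version for the first alone. Per the file headers, the deposited values are FPKM per locus with an interval for each. The deposited FPKM hold no read counts, so total depth is unknown; 7265 to 10058 symbols reached 1 FPKM per library. The 23813 loci were joined by symbol (23309 symbols, 260 with more than 1 locus, summed).

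The 16 libraries of the Btg4 experiment were fitted together with limma 3.58.1 in R 4.3.3 on log2(FPKM + 1), 1 mean per group, with 8 residual degrees of freedom and 13 contrasts. The 2-sided p-values were adjusted by Benjamini-Hochberg over 12311 genes in each contrast. The fit was tested on simulated data. Fold changes on this scale understate those of low genes. Alternatives were a pseudocount of 0.1, no filter or a filter at 5 FPKM, median-of-ratios scaling, quantile normalization, a replicate block, a fit of the contrasted libraries alone, leaving out each library and, chosen after seeing the data, a length correction. All 10 genes are described; 16 genes of the pathway lists are named whatever they did, and for each of the 10 the 2 genes with the highest r. The genes and lists were chosen with earlier results of these data known. A check of the Erk-/- label by expression is not reported here.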

Additional observations from a re-analysis of the deposited data

Results flagged for a closer look

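The steps between stages differed between the genotypes, by the limma interaction, for 6 of the 10 genes at GV to MII, for 2 at MII to zygote and for 6 at zygote to 2-cell. The shares of all genes called were 42.5%, 12.2% and 48%. The values are log2 differences of the step in libraries labelled Btg4-/- minus that in wild type. For GV to MII they were -3.29 for Mcm4, -0.90 for Mcm2, 2.31 for Mcm5, 1.88 for Cdt1, 1.08 for Cdc6 and 0.77 for Mcm6. For MII to zygote they were 1.39 for Mcm4 and -0.70 for Mcm5. For zygote to 2-cell they were 2.97 for Mcm4, 1.101 for Mcm7, 1.02 for Mcm2, -1.86 for Mcm5, -1.35 for Mcm3 and -0.90 for Cdc6. The interactions share the libraries of the stage between them. Mcm4 and Mcm5 had opposite signs at all 3 steps.

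The wild-type maturation step of the Erk experiment, MII minus GV with 1 library each, had the sign opposite to that of the Btg4 experiment for 6 genes, and this difference was not tested. It was 1.79 for Mcm2, -2.41 for Mcm3, -0.45 for Mcm6, -1.63 for Mcm10, -0.71 for Cdt1 and 1.41 for Gmnn, against -1.14, 1.15, 0.21, 2.41, 1.21 and -2.94 in the Btg4 experiment. The all-gene median of this step was -0.76 in the Erk experiment, so the signs of Mcm6 and Cdt1 there depend on the scaling, and Mcm6 did not pass in the Btg4 experiment (adjusted p = 0.373 by limma).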

How the results depend on the processing

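Of 130 tests on the 10 genes (10 genes in 13 contrasts), 75 passed, where the share of all genes called ran from 7.9% to 57.4% by contrast. Of 956 alternative values of these 75, 822 kept the call, 134 lost it and 0 changed sign; 58 of the 75 kept it under every setting other than leaving out a library or fitting the contrasted libraries alone, and 22 lost it without some library. The number of genes called at GV (2) was 1 without a filter, and after median-of-ratios scaling, quantile normalization or length correction, and 0 with the contrasted libraries alone, where 5 had an unadjusted p under 0.05, beside 2956 of all genes. With the contrasted libraries alone it was 3 for the genotypes at 2-cell, 1 for MII to zygote labelled Btg4-/- and 0 for the interaction MII to zygote (2 at an unadjusted p under 0.05, beside 3419 of all genes). The length correction left 1 in both MII to zygote contrasts, and both scalings left 1 in the interaction. Leaving out libraries gave 1 at GV, 4 to 6 at MII, 4 to 5 in the zygote and 4 to 5 at 2-cell between genotypes. Within wild type it gave 8 to 9, 1 to 2 and 7 along the steps, within the libraries labelled Btg4-/- 8 to 9, 1 to 2 and 9, and for the interactions 3 to 5, 1 to 2 and 4 to 6. The genotype difference of Gmnn at MII changed sign to -0.062 after median-of-ratios scaling, -0.052 after quantile normalization and -0.873 after the length correction, and ranged from -0.467 to 0.587 as libraries were left out; its interaction GV to MII (-0.491) ranged from -1.018 to 0.036, the last without wild-type MII library 2. In the Erk experiment a fold of 1.5 counted 3 genes at GV, 4 at MII and 8 for maturation labelled Erk-/-, and median-of-ratios scaling counted 4 at MII. The calls over all genes at GV, 178 higher and 795 lower, became 431 and 380 after median-of-ratios scaling, 281 and 415 after the length correction, and 0 and 0 with the contrasted libraries alone. Lower calls were 299 with quantile normalization. At 2-cell the fit of the contrasted libraries alone gave 1640 higher and 1795 lower, against 2785 and 3252. For wild type MII to zygote the rises (2521) were 1575, 1488, 767 and 1385 with median-of-ratios, quantile, contrasted libraries and length correction, and the falls (985) 394 with contrasted libraries. For the libraries labelled Btg4-/- the rises (1271) were 776, 365 and 682 with median-of-ratios, contrasted libraries and length correction, and the falls (662) 1071 and 294 with the first 2. Leaving out 1 library moved such counts too. At GV they were 53 to 89 higher without any 1 of the 4, and 209 to 265 lower without library 2 labelled Btg4-/- or wild-type library 1 or 2. For MII to zygote labelled Btg4-/- the rises were 524 to 682 and the falls 277 to 404 without any 1 of the 4, and in wild type 1406 and 609 without zygote library 2. In the interaction MII to zygote (610 higher and 893 lower) they were 364 to 384 and 503 to 535 without MII library 2 or either zygote library labelled Btg4-/-, with 370 higher without wild-type zygote library 2 and 524 lower without wild-type zygote library 1. The cause was not tested. Libraries with the same replicate number shared little deviation from their group means (correlations of -0.01 to 0.123 in the contrasts). That cannot show whether they share donors. The replicate block added only Gmnn in the zygote (-0.66, adjusted p = 0.0486) and Cdt1 from MII to zygote labelled Btg4-/- (0.59, 0.0364), with 7 and 5 genes called. Few fragments limit Gmnn at MII and Mcm10 at GV.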
